A study of Mus musculus with 12 samples.

Results

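A set of 10 genes of amino acid uptake, serine synthesis and folate-bound one-carbon metabolism was followed across all 4 groups of the study. They were chosen by name, with earlier results of these data known, so shares of all genes given beside their counts are no test. The members are the transporter genes Slc7a5, Slc3a2, Slc1a5 and Slc7a1, the serine synthesis genes Phgdh and Psat1, and the one-carbon genes Shmt1, Shmt2, Mthfd2 and Mthfd1l. The count table held 55414 gene records, and all 10 members were found as 1 protein-coding record each. Every member passed the filter on low counts in every comparison. RNA was measured in splenic CD4+ T cells, isolated by negative selection from male wild-type BALB/c mice at 18 weeks of age. In the LIP group a silk ligature around the maxillary second molars had induced periodontitis, and the CTL group carried no ligature. Cells were taken uncultured on day 0, or on day 2 of culture with IL-2, anti-TCRβ and anti-CD28, and each of the 4 combinations had 3 libraries. In the treatment labels of day 2 the costimulating antibody is anti-CD28 in CTL 92 and LIP 90, anti-CD29 in CTL 93 and LIP 96, then anti-CD30 in both libraries numbered 97, while the culture protocol has anti-CD28 alone. Libraries are called by group and number as in the labels (88, 89 and 94 in CTL and 92, 93 and 94 in LIP on day 0), and values are given in that order throughout, on day 2 as CTL 92, 93 and 97 and LIP 90, 96 and 97. Day 2 differs from day 0 by the culture as well as by the antibodies, and these cannot be told apart.

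T cells that leave the resting state need amino acids for protein synthesis and one-carbon units for nucleotides. Slc7a5 and Slc3a2 encode the light and the heavy chain of the transporter for large neutral amino acids such as leucine, Slc1a5 encodes a carrier of glutamine and other neutral amino acids, and Slc7a1 encodes a carrier of arginine and lysine. Phgdh and Psat1 encode consecutive enzymes of serine synthesis from a glycolytic intermediate. Serine hydroxymethyltransferase passes a carbon of serine to tetrahydrofolate, in the cytosol as Shmt1 and in mitochondria as Shmt2, and Mthfd2 and Mthfd1l carry that unit on to formate, which leaves the mitochondria for purine and thymidylate synthesis.

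Positions are those of the gene bodies on GRCm39 in GENCODE M39. The transporter genes are Slc7a5 (ENSMUSG00000040010) at chr8:122607884-122634433, minus strand, Slc3a2 (ENSMUSG00000010095) at chr19:8684245-8701108, minus strand, Slc1a5 (ENSMUSG00000001918) at chr7:16515265-16532731, plus strand and Slc7a1 (ENSMUSG00000041313) at chr5:148264220-148336848, minus strand. The serine synthesis genes are Phgdh (ENSMUSG00000053398) at chr3:98220484-98255047, minus strand and Psat1 (ENSMUSG00000024640) at chr19:15882039-15924701, minus strand. The one-carbon genes are Shmt1 (ENSMUSG00000020534) at chr11:60661185-60708167, minus strand, Shmt2 (ENSMUSG00000025403) at chr10:127352266-127358323, minus strand, Mthfd2 (ENSMUSG00000005667) at chr6:83282673-83302890, minus strand and Mthfd1l (ENSMUSG00000040675) at chr10:3922870-4117081, plus strand. Counts were per gene, so that no isoform was told apart.

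The promoters of Shmt1, Shmt2 and Mthfd2 are shown because the day 2 libraries split over these transcripts, of the cytosolic enzyme and of mitochondrial ones. Each line gives the 250 bases before the annotated start in RefSeq on GRCm38.p6, read 5′ to 3′ on the gene's strand, which was minus for all 3, and capitals mark CpG dinucleotides.
Shmt1: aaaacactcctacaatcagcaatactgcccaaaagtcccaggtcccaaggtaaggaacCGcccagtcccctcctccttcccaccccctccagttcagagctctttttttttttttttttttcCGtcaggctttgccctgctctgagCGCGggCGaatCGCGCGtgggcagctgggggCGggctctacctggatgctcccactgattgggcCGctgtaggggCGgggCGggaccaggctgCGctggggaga
Shmt2: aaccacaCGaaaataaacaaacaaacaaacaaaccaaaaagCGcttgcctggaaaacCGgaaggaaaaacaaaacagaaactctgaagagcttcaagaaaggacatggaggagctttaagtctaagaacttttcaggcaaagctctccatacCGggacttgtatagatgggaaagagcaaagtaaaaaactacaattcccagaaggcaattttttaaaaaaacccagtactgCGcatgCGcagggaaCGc
Mthfd2: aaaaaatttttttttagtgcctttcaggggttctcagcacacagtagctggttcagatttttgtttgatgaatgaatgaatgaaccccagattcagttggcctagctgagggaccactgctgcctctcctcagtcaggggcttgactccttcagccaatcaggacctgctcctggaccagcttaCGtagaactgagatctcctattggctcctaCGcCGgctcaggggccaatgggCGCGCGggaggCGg
They lie at chr11:60811266-60811515, chr10:127522445-127522694 and chr6:83317605-83317854. The Shmt1 stretch held 13 CpG at 60.0% G and C, that of Shmt2 held 7 at 40.8%, and that of Mthfd2 held 7 at 52.4%, against a median of 6 CpG and 52.4% over all 32851 promoter windows. The table matched 8 of the 10 members, with 10 windows, and Slc7a5 and Slc1a5 had no entry. The letters CACGTG (the E-box that MYC can bind) and TGATGNAA (the core of the site for C/EBP and ATF factors) were searched on both strands of each window, from 250 bases before to 50 after the start. Neither was found in any of the 10 windows, while 7.15% of all windows held the E-box and 3.97% the C/EBP-ATF core.

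Libraries held 6249018 to 7845676 counts on day 0 and 8691699 to 12866718 on day 2. The labelled cell type matched its markers, with Cd4 at 422 to 645 CPM (counts scaled to a common library size) and Cd8a at 0.106 to 2.25 CPM. Nothing in the labels says whether libraries of a group came from separate mice, so that p-values measure the spread between these libraries, which may be technical. On day 2 the library LIP 90 stood apart from LIP 96 and LIP 97. Over genes with enough reads, the chi-square statistic between 2 libraries of a group averaged 48.3 per gene for LIP 90 against LIP 96 and 38.6 against LIP 97, but 2.99 to 13.1 in all other pairs of a group. The second principal component (5.46% of the variance) placed LIP 96 at -46.9, LIP 97 at -42.8, LIP 90 at 7.17 and CTL of day 2 between 18.8 and 36.8. The members' differences on day 2 are therefore given with and without LIP 90. On the second component LIP 90 lay nearer to CTL than LIP 96 and LIP 97 did. Leaving it out sets 2 LIP libraries against 3 CTL libraries. That step in itself enlarges most of the members' differences and narrows their errors, so p-values without LIP 90 are no independent support. Summed B cell markers (6 genes) were at 28.9 and 31.8 CPM in LIP 97 and LIP 96 and at 19.1 CPM in CTL 97 of day 2, against 0.896 to 3.68 CPM in every other library. The CD8 markers (2 genes) summed to 9.20 and 13.2 CPM in LIP 97 and LIP 96 and to 4.43 to 6.74 CPM elsewhere. The other lists for foreign cells summed to 0.795 to 11.9 CPM (myeloid, 8 genes, S100a8 and S100a9 at 0), 0.740 to 3.77 CPM (erythroid, 6 genes) and 0.955 to 14.8 CPM (NK, 5 genes, Klra8 at 0), with myeloid and NK sums higher in every library of day 0 than of day 2. Pancreatic acinar markers (11 genes) summed to 24.1 CPM in LIP 93 of day 0 and to at most 10.4 CPM elsewhere. Their part in the results was not tested. In bulk RNA, fewer cells of a type and less RNA per cell cannot be told apart.

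Before culture all 10 genes were detected at moderate levels, and none was called different between LIP and CTL. Per kilobase of transcript, Slc1a5 was the highest in CTL on day 0 at 24.96 ± 2.74 CPM per kb (SD, n = 3), followed by Slc3a2 at 23.3 ± 2.78. The ranges of these transporter genes overlapped. Shmt2, Mthfd1l, Slc7a1, Phgdh and Mthfd2 came next, with means of 17.1 to 14.4 CPM per kb and each overlapping its neighbor. Psat1 at 8.27 ± 0.877, Slc7a5 at 6.78 ± 0.479 and Shmt1 at 4.72 ± 0.512 CPM per kb formed the lower end, with no overlap between neighbors. The same 3 genes were the lowest in LIP on day 0. The heavy chain gene Slc3a2 thus stood well above its light chain gene Slc7a5 in resting cells, though reads of an overlapping gene, named below, may be among its counts.

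The first comparison asks whether periodontitis alone changed these genes in uncultured cells. Log2 differences of LIP over CTL on day 0 lay between -0.14 (Slc3a2) and 0.19 (Slc7a5), with 4 of 10 above 0. Slc7a5 was at 25.01, 21.9 and 24.6 CPM in CTL and 27.4, 22.1 and 31.4 CPM in LIP, so that the groups overlapped, and its log2 difference was 0.19 ± 0.13 (SE, adjusted p = 0.572). Slc3a2 was at 67.5, 57.4 and 53.8 CPM in CTL and 49.9, 52.9 and 58.0 CPM in LIP, with a log2 difference of -0.14 ± 0.10 (adjusted p = 0.557). None of the 10 passed an adjusted p of 0.05 in edgeR's quasi-likelihood test or the fit of all 12 libraries, nor did any of the 9 for which DESeq2 gave an adjusted p (it gave none for Shmt1). None passed an unadjusted p of 0.05 either, and no member had groups that did not overlap. Over all 14064 genes tested, 0.427% were called (1.44% by DESeq2 and 0.0775% in the fit of all libraries), 13.9% had an unadjusted p under 0.05 and 19.1% had groups that did not overlap. Without CTL 94 the share of all genes called was 4.59%, and again none of the members was called.

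**Figure D1:**
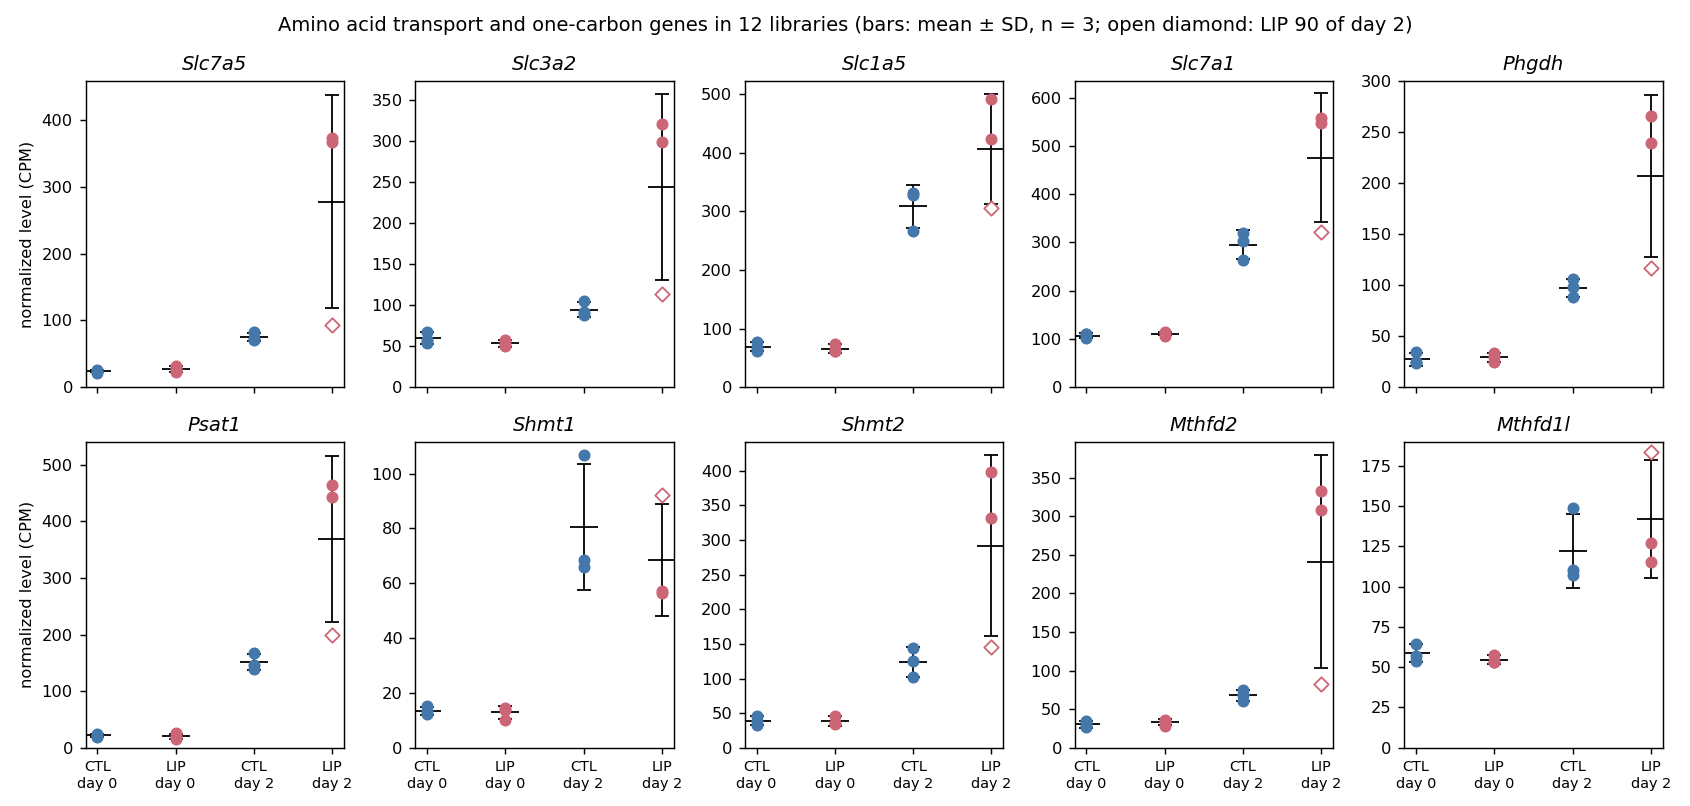
Normalized level in CPM (vertical axes, linear from 0, 1 scale per gene) of the 10 genes in each library of the 4 groups. Points are libraries, bars are the mean ± SD of 3 libraries, and the open diamond is LIP 90 of day 2, which lies far below LIP 96 and LIP 97 in Slc7a5 and Mthfd2 and above them in Shmt1 and Mthfd1l.

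Every member was higher after activation in the CTL group. All 10 were called higher on day 2 than on day 0, 9 of them by over 2-fold, where 35.3% of all 15475 genes tested were called higher and 21.1% by over 2-fold. Their median log2 change was 1.65, against -0.02 over all genes. In all, 69.0% of genes were called, 33.7% as lower.

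Among the transporters, Slc1a5 had the largest log2 change. It stood at 67.0, 62.6 and 77.4 CPM on day 0 and 267, 331 and 328 CPM on day 2, a log2 change of 2.16 ± 0.17 or 4.47-fold (adjusted p = 8.57e-08). Slc7a1, the arginine and lysine carrier, went from 109.7, 109.7 and 101 CPM to 304, 319.9 and 263 CPM (1.47 ± 0.17, 2.76-fold, adjusted p = 4.26e-06). The light chain gene Slc7a5 reached 70.1, 72.7 and 82.2 CPM, 3.15 times its day 0 level (1.65 ± 0.38, adjusted p = 0.00151). In these genes no day 0 library overlapped a day 2 library, as in 37.2% of all genes with day 2 higher.

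Its partner Slc3a2 had the smallest log2 change of all members. The heavy chain gene was at 67.5, 57.4 and 53.8 CPM on day 0 and 91.0, 87.9 and 105 CPM on day 2, a log2 change of 0.67 ± 0.28 or 1.59-fold (adjusted p = 0.0437). This call was not stable. Leaving out 1 library ended it for 8 of the 12 libraries (every CTL library of either day, and LIP 93 and LIP 94 of day 0), with adjusted p-values of 0.0519 to 0.114. It was also lost with a filter of at least 10 counts in every library (log2 change 0.61, adjusted p = 0.0625), under upper-quartile scaling (log2 change 0.38, adjusted p = 0.244) and under library totals (0.48, adjusted p = 0.136). The last 2 settings moved the median of all genes to -0.31 and -0.21. The lncRNA gene Snhg1 overlaps Slc3a2 on the opposite strand with more counts in all (15738 against 12022). Libraries were directional, but the strand setting of the counting is not given in the sources used here, and without it reads of the genes cannot be told apart.

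Of the serine synthesis genes, Psat1 changed by more than every transporter of the set and Phgdh by less than Slc1a5. Psat1, the transaminase of the pathway, rose from 21.4, 19.5 and 24.1 CPM to 139, 146 and 167 CPM, the largest change of the 10 members in CTL at 6.96-fold (2.80 ± 0.27, adjusted p = 8.51e-07). Phgdh, which encodes the entry enzyme, rose from 24.3, 23.5 and 34.6 CPM to 88.6, 106 and 98.2 CPM (1.83 ± 0.26, 3.55-fold, adjusted p = 2.61e-05). Phgdh has 20 pseudogenes of 90.1% to 97.2% identity in the annotation. These held 608 counts against 9763 for Phgdh over all libraries, so the level of Phgdh is uncertain by what the counting may have split among them.

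Of the one-carbon genes, the cytosolic Shmt1 had the larger log2 change and its mitochondrial counterpart a smaller one in CTL. Shmt1 was at 15.1, 12.2 and 13.3 CPM on day 0 and 65.9, 68.6 and 107 CPM on day 2 (2.58 ± 0.24, 5.97-fold, adjusted p = 5.64e-07). Shmt2 was at 33.1, 46.1 and 38.7 CPM and then 102, 126 and 144 CPM (1.65 ± 0.29, 3.14-fold, adjusted p = 0.000181). The ratio that compares them within a library is given further on. Shmt1 overlaps Top3a on its own strand and Smcr8 on the opposite strand. Those neighbors had log2 differences of 0.21 and -0.16 between days in CTL, with adjusted p-values of 0.143 and 0.18. In LIP, where Shmt1 changed by 2.42 ± 0.24 (adjusted p = 9.19e-07), Top3a was called higher by 0.71 ± 0.12 (adjusted p = 0.000136), and Smcr8 differed by 0.13 ± 0.10 (adjusted p = 0.273). The part of Top3a in the Shmt1 value was not tested.

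The mitochondrial enzymes after Shmt2 had the smaller changes. Mthfd2, the dehydrogenase and cyclohydrolase that is low in most resting adult tissues, was at 29.5, 26.2 and 35.0 CPM on day 0 and 68.8, 60.2 and 74.9 CPM on day 2 (1.17 ± 0.37, 2.25-fold, adjusted p = 0.0122). Under upper-quartile scaling its log2 change was 0.88 and its adjusted p 0.0513. Mthfd1l, the synthetase that releases formate, went from 57.1, 53.7 and 64.6 CPM to 110.3, 107 and 149 CPM (1.06 ± 0.17, 2.09-fold, adjusted p = 8.16e-05). After this activation Slc1a5 was still the highest per kilobase in CTL at 112 ± 13.2 CPM per kb, with no overlap with the next gene. Psat1 had moved from the eighth to the second place at 57.6 ± 5.45 CPM per kb, where its range overlapped those of Shmt2 and Phgdh. Slc7a5 was the lowest at 21.3 ± 1.82 CPM per kb, overlapping Shmt1.

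**Figure D2:**
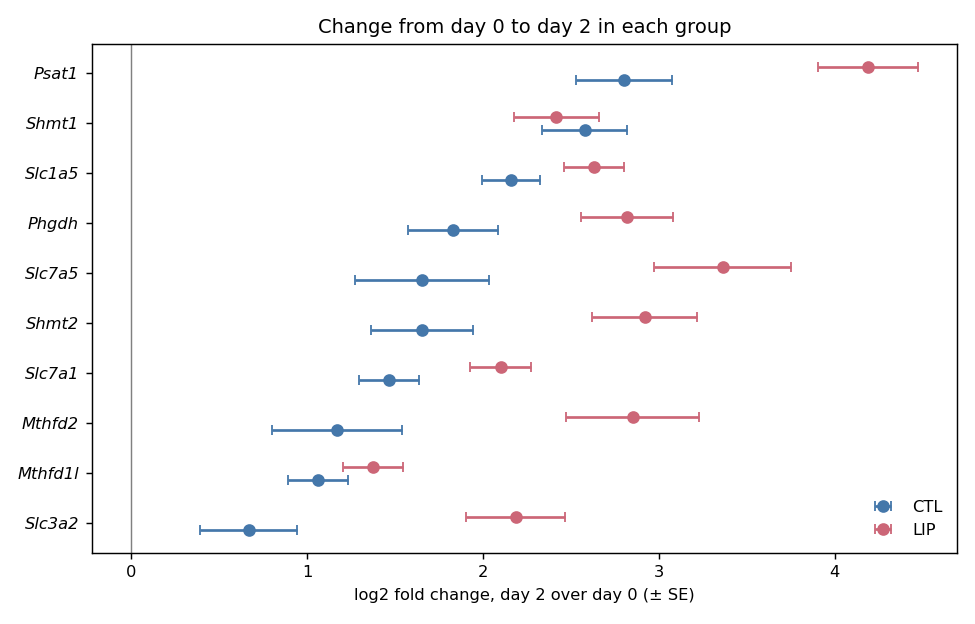
Log2 fold change of day 2 over day 0 (horizontal axis, ± SE) of each member in CTL and in LIP, from 1 fit of all 12 libraries. Every point lies above 0, and the LIP points of Slc7a5, Slc3a2, Mthfd2 and Psat1 lie farther right than the CTL points by 1.39 to 1.71.

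In the LIP group all 10 genes were also called higher on day 2, here each by over 2-fold. The share of all genes called higher was 36.6%, and 22.0% by over 2-fold, while 71.8% were called in all and 35.2% as lower. The median log2 change of the members was 2.73, and it was 2.96 without LIP 90. Psat1 again changed the most, from 15.8, 19.4 and 25.4 CPM to 199.9950, 465 and 443 CPM (4.19 ± 0.29, 18.2-fold, adjusted p = 2.68e-08). Mthfd1l changed the least, from 57.6, 53.0 and 53.4 CPM to 183, 115 and 127 CPM (1.38 ± 0.17, 2.60-fold, adjusted p = 7.41e-06). The heavy chain gene Slc3a2, which had the least change in CTL, was called higher in LIP by 2.19 ± 0.28 on the log2 scale (adjusted p = 1.1e-05). Snhg1, which overlaps it, had a log2 difference between days of 0.17 ± 0.31 in CTL (adjusted p = 0.641) and was called higher by 1.94 ± 0.32 in LIP (adjusted p = 9.78e-05). The calls of all 10 members in LIP held in every alternative tried. Without LIP 90, where 35.6% of all genes were called higher, all 10 were called higher as well. Per kilobase Slc1a5, Psat1, Shmt2 and Mthfd2 led in LIP on day 2, at 147 ± 33.8, 141 ± 56.1, 127 ± 56.9 and 115 ± 65.7 CPM per kb (SD, n = 3), all overlapping. Shmt1 was the lowest at 23.9 ± 7.17 CPM per kb, and each gene overlapped its neighbor in this order.

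The comparison of LIP with CTL on day 2 asks whether periodontitis changed how these genes stood after activation. In 7 of the 10 members every LIP library lay above every CTL library, with LIP 90 close to the CTL range and LIP 96 and LIP 97 far above it. None of the 10 members passed an adjusted p of 0.05, and of all 14041 genes 0.00% did. At an unadjusted p under 0.05, 7 members were higher, where 8.33% of all genes were. Groups did not overlap, with LIP higher, for 10.9% of all genes. Without LIP 90, 8 of 10 members were called higher, where 7.74% of all genes were called higher and 6.19% lower. DESeq2 called 5 members higher with 2.04% of all genes, and the fit of all 12 libraries called 7 with 2.88%.

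Slc7a5, the light chain gene of the leucine transporter, had the largest log2 difference of the members with all libraries. It was at 70.1, 72.7 and 82.2 CPM in CTL and at 93.4, 367 and 374 CPM in LIP 90, 96 and 97. LIP 96 and LIP 97 were 4.89 and 4.98 times the CTL mean and LIP 90 was 1.25 times. The log2 difference was 1.88 ± 0.45 (adjusted p = 0.135), and 2.32 ± 0.11 without LIP 90 (adjusted p = 4.34e-06). For Slc3a2 the CTL libraries held 91.0, 87.9 and 105 CPM and the LIP libraries 114, 320.4 and 298 CPM in the same order, again with LIP 90 just above CTL. Its log2 difference was 1.36 ± 0.34 (adjusted p = 0.14), and 1.73 ± 0.11 without LIP 90 (adjusted p = 3.08e-05). Snhg1, which overlaps it, was at 123, 94.1 and 130.4 CPM in CTL and 149, 448 and 285 CPM in LIP, with LIP 90 again the lowest of the LIP libraries. Its log2 difference was 1.33 ± 0.35 (adjusted p = 0.15), and 1.68 ± 0.19 without LIP 90 (adjusted p = 0.000793). Its part in the Slc3a2 value was not tested.

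The other transporters of the list differed by less. Slc7a1 was at 304, 319.9 and 263 CPM in CTL and 321, 558 and 547 CPM in LIP, so that LIP 90 exceeded the highest CTL library by little. Its log2 difference was 0.68 ± 0.22 (adjusted p = 0.193), and 0.92 ± 0.12 without LIP 90 (adjusted p = 0.00138). Slc1a5 was at 267, 331 and 328 CPM in CTL and 306, 423 and 491 CPM in LIP, where LIP 90 fell within the CTL range. Its log2 difference of 0.39 ± 0.19 (adjusted p = 0.349) became 0.58 ± 0.13 without LIP 90 (adjusted p = 0.0188).

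Both serine synthesis genes followed the same order of libraries. Psat1 was at 139, 146 and 167 CPM in CTL and 199.9950, 465 and 443 CPM in LIP, with LIP 90 above the CTL range at 1.33 times the CTL mean. The log2 difference was 1.28 ± 0.29 (adjusted p = 0.128), and 1.61 ± 0.11 without LIP 90 (adjusted p = 4.79e-05). Phgdh was at 88.6, 106 and 98.2 CPM in CTL and 117, 239 and 266 CPM in LIP. It differed by 1.08 ± 0.28 (adjusted p = 0.15), and by 1.39 ± 0.11 without LIP 90 (adjusted p = 0.000119).

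Within the one-carbon enzymes the libraries split by gene. Mthfd2 was at 68.8, 60.2 and 74.9 CPM in CTL and 82.2, 333 and 308 CPM in LIP, with LIP 96 and LIP 97 at 4.89 and 4.53 times the CTL mean. Its log2 difference was 1.82 ± 0.44 (adjusted p = 0.139), and 2.25 ± 0.12 without LIP 90 (adjusted p = 8.06e-06). Shmt2, at 102, 126 and 144 CPM in CTL, was at 146, 332 and 398 CPM in LIP. Its log2 difference was 1.23 ± 0.33 (adjusted p = 0.151), and 1.58 ± 0.15 without LIP 90 (adjusted p = 0.000292).

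The cytosolic Shmt1 and the formate-releasing Mthfd1l did not share this order. Shmt1 was at 65.9, 68.6 and 107 CPM in CTL and 92.3, 57.0 and 56.4 CPM in LIP, so that LIP 96 and LIP 97 were below every CTL library and LIP 90 was among them. The log2 difference was -0.24 ± 0.24 (adjusted p = 0.658), and -0.49 ± 0.20 without LIP 90 (adjusted p = 0.135). Mthfd1l was at 110.3, 107 and 149 CPM in CTL and 183, 115 and 127 CPM in LIP, with LIP 90 the highest of the 6 and LIP 96 and LIP 97 within the CTL range. Its log2 difference was 0.21 ± 0.20 (adjusted p = 0.64), and 0.01 ± 0.15 without LIP 90 (adjusted p = 0.982). Among the members LIP 90 reached at most 1.502 times the CTL mean, in Mthfd1l, and it lay within the CTL range in Slc1a5 and Shmt1.

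**Figure D3:**
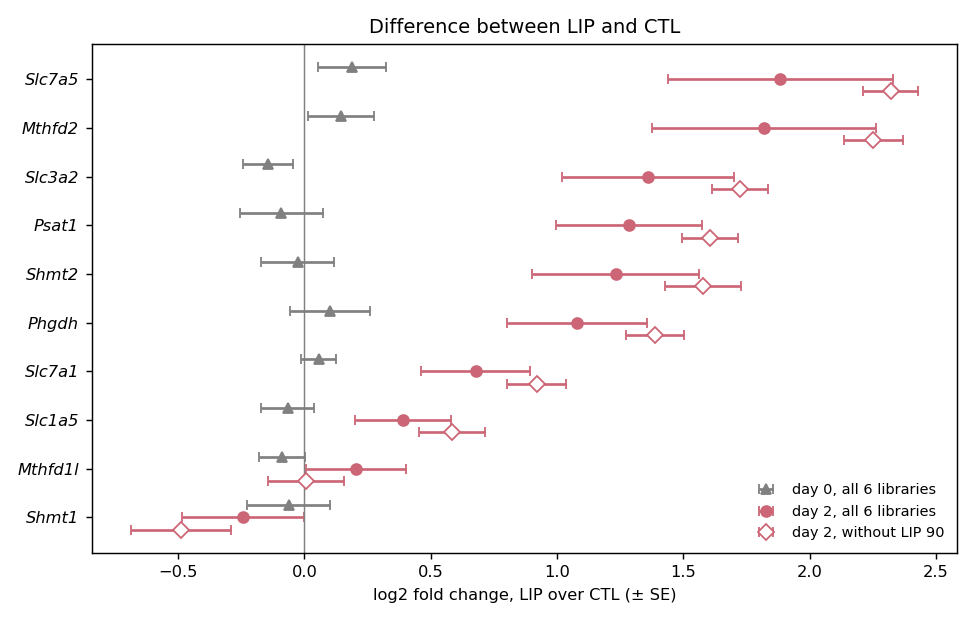
Log2 fold change of LIP over CTL (horizontal axis, ± SE) of each member on day 0, on day 2 and on day 2 without LIP 90. Day 0 values lie between -0.14 and 0.19, and on day 2 the estimates of Slc7a5 and Mthfd2 are the highest and those of Shmt1 and Mthfd1l the lowest, with narrower errors once LIP 90 is left out.

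Whether activation changed these genes by different amounts in LIP and CTL was tested as the interaction of group and day, which shares the day 2 libraries with the comparison just given. None of the 10 members passed, where 0.0517% of all 15475 genes did. At an unadjusted p under 0.05, 7 members had the larger change in LIP, against 8.65% of all genes. The largest was Slc7a5, whose change in LIP exceeded that in CTL by 1.71 ± 0.53 on the log2 scale (adjusted p = 0.138), followed by Mthfd2 at 1.68 ± 0.52 (adjusted p = 0.137) and Slc3a2 at 1.52 ± 0.39 (adjusted p = 0.102). Shmt1 was the lowest at -0.16 ± 0.33 (adjusted p = 0.868). Without LIP 90, 8 members were called with the larger change in LIP, where 5.64% of all genes were. These were the members other than Shmt1 and Mthfd1l, with adjusted p-values from 5.93e-06 (Slc7a5) to 0.0301 (Slc1a5). DESeq2 called 3 members with all libraries, where 2.40% of all genes were called larger in LIP.

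Ratios within a library do not depend on the scaling between libraries. They were taken per kilobase of transcript, and 12 comparisons were made, each with an exact two-sided permutation test whose smallest p with 3 against 3 libraries is 0.1. No adjusted p was under 0.343. Slc7a5 to Slc3a2, the light to the heavy chain, was 0.270, 0.278 and 0.333 in CTL on day 0 and 0.560, 0.601 and 0.569 on day 2. In LIP it was 0.400, 0.304 and 0.394 on day 0 and 0.596, 0.832 and 0.910 on day 2. The counts per kilobase of the pair thus came closer with culture in both groups, by 0.98 in CTL and 1.08 in LIP (log2, exact p = 0.1 each, the smallest possible), without overlap between days. Reads of Snhg1, which overlaps Slc3a2, may be among its counts, and their part in this ratio was not tested.

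Shmt2 to Shmt1, the mitochondrial to the cytosolic enzyme, was 2.73, 4.71 and 3.62 in CTL on day 0 and 1.92, 2.29 and 1.68 on day 2. This log2 difference of -0.89 had groups that did not overlap (exact p = 0.1). The LIP libraries had 3.03, 3.02 and 5.68 on day 0 and 1.97, 7.26 and 8.79 on day 2 in LIP 90, 96 and 97. LIP 90 was thus within the CTL range of day 2 and LIP 96 and LIP 97 were above every other library, for a log2 difference between LIP and CTL on day 2 of 1.36 (exact p = 0.2) and of 2.04 without LIP 90.

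A like comparison was made for Mthfd2 and Mthfd1, which encodes the cytosolic enzyme with the same dehydrogenase and cyclohydrolase steps. Their ratio was 1.06, 1.11 and 1.52 in CTL on day 0 and 1.41, 1.04 and 0.954 on day 2. In LIP it was 1.54, 1.33 and 1.38 on day 0 and 1.10, 9.10 and 8.92 on day 2. On day 2 the log2 difference between LIP and CTL was 2.00 (exact p = 0.2), with LIP 96 and LIP 97 above every CTL library and LIP 90 within the CTL range. It was 3.01 without LIP 90. Mthfd1 itself was at 77.7, 91.96 and 125 CPM in CTL and 119, 58.0 and 54.8 CPM in LIP on day 2 (log2 difference -0.36 ± 0.30, adjusted p = 0.583, and -0.78 ± 0.18 without LIP 90, adjusted p = 0.0228).

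**Figure D4:**
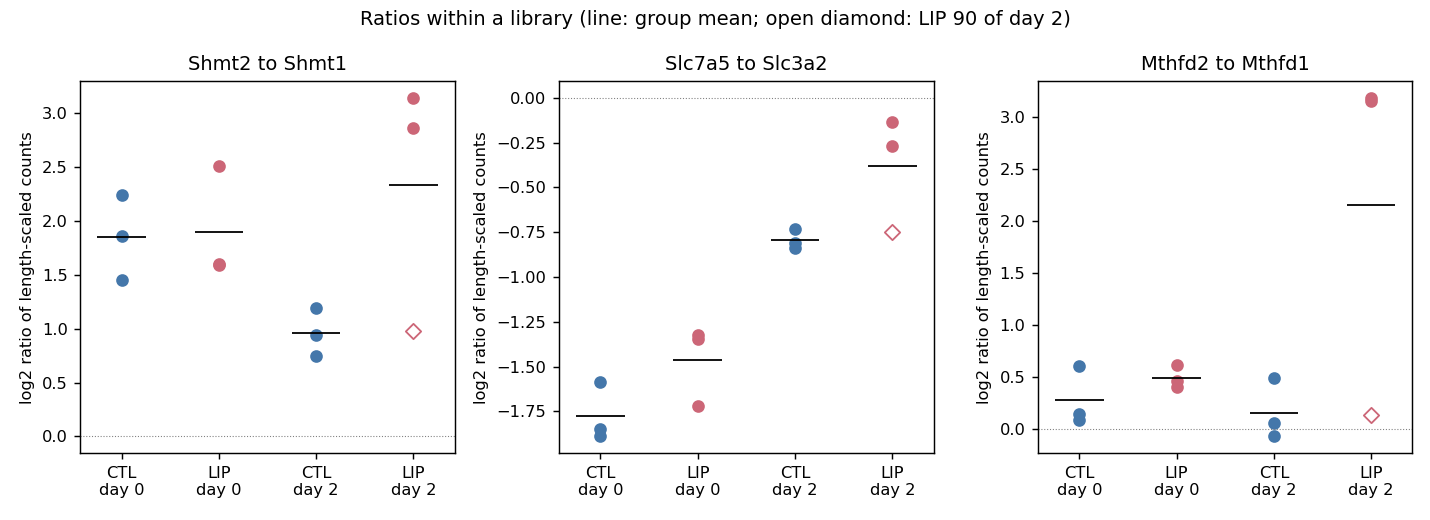
Log2 ratio of length-scaled counts within each library (vertical axes) for Shmt2 to Shmt1, Slc7a5 to Slc3a2 and Mthfd2 to Mthfd1. Lines are means of 3 libraries and the open diamond is LIP 90 of day 2, which lies with the CTL libraries of that day in all 3 ratios, while LIP 96 and LIP 97 lie above them.

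The genes around these pathways were described as lists that leave out the members, with 1 exception named below. Their counts with activation in CTL stand beside 35.3% of all genes called higher and 33.7% lower. On day 0 no gene of these 9 lists was called between LIP and CTL. Of 14 genes of purine and pyrimidine synthesis, all tested, 11 were called higher with activation in CTL and none lower, with a median log2 change of 1.35. Cad, which starts pyrimidine synthesis, was at 66.9, 66.9 and 62.9 CPM on day 0 and 242, 259 and 317 CPM on day 2 in CTL (2.05 ± 0.22, adjusted p = 2.57e-06), and Pfas of the purine pathway changed by 2.34 ± 0.17 (adjusted p = 4.76e-08). The smallest called changes of the list were Atic at 0.49 ± 0.18 (adjusted p = 0.0291) of late purine synthesis and Gmps at 0.72 ± 0.12 (adjusted p = 8.8e-05), the GMP synthetase gene. Among 15 tested of 17 other folate genes, 5 were called higher and 2 lower, and the median was 0.26. Tyms, the thymidylate synthase gene, rose by 2.86 ± 0.21 (adjusted p = 5.84e-08), while the mitochondrial folate carrier gene Slc25a32 fell by 0.39 on the log2 scale (adjusted p = 0.00481) and Mtfmt, which formylates the mitochondrial initiator tRNA, by 0.46 (adjusted p = 0.00879). The Mtfmt call ended without CTL 89 of day 0 (adjusted p = 0.0566). That of Atic ended without CTL 88 or CTL 89 of day 0 or CTL 97 of day 2 (adjusted p = 0.0605, 0.0761 and 0.112), under upper-quartile scaling (log2 change 0.20, adjusted p = 0.3) and under library totals (0.30, adjusted p = 0.149).

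Serine and glycine genes outside the members were few. Of 9 listed, 5 were tested in CTL, and 3 rose and 1 fell. Psph, which encodes the last enzyme of serine synthesis, was at 12.4, 10.4 and 13.02 CPM on day 0 and 32.9, 25.9 and 29.1 CPM on day 2 (1.301 ± 0.33, adjusted p = 0.00286). The glycine cleavage genes Gcsh and Dld rose by 2.25 ± 0.30 and 1.07 ± 0.11 (adjusted p = 1.5e-05 and 2.16e-06), and the serine racemase gene Srr fell by 0.58 on the log2 scale (adjusted p = 0.00632). Of 14 genes of the methionine cycle and polyamines, 12 were tested, of which 7 rose and 3 fell, with Odc1 of polyamine synthesis at 3.19 ± 0.27 (adjusted p = 2.14e-07). In transsulfuration Cbs fell by 0.90 on the log2 scale (adjusted p = 0.00747), while Cth was at 0, 0 and 0.132 CPM on day 0 and 4.54, 6.21 and 1.70 CPM on day 2. Mat2b, a subunit of the enzyme that makes S-adenosylmethionine, fell by 0.57 (adjusted p = 0.00275). Of 15 genes of glutamine and branched-chain amino acid use, Psat1 included, 14 were tested and 8 rose and 1 fell. Bcat1, the cytosolic branched-chain aminotransferase, went from 1.51, 1.20 and 2.50 CPM to 65.4, 76.9 and 74.3 CPM (5.37 ± 0.20, adjusted p = 3.2e-10), and the glutamine synthetase gene Glul fell by 0.52 on the log2 scale (adjusted p = 0.000346). Gls2, a glutaminase gene, was at 1.05, 0 and 1.05 CPM on day 0 and 9.41, 11.1 and 5.79 CPM on day 2, and Bcat2, the mitochondrial aminotransferase gene, rose by 0.47 ± 0.10 (adjusted p = 0.000874), a call that ended under upper-quartile scaling (0.19, adjusted p = 0.112).

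Of 23 other plasma membrane amino acid transporters, 12 were tested, 5 rose and 1 fell with activation in CTL (10 and 1 without LIP 90, where 36.5% of all genes were called higher in CTL). Slc16a10, an aromatic amino acid carrier, rose by 2.00 ± 0.16 (adjusted p = 1.16e-07) and Slc43a2 of neutral amino acid transport fell by 0.58 on the log2 scale (adjusted p = 8.7e-05). Its relative Slc43a1 was at 0, 0.120 and 0.395 CPM on day 0 and 2.22, 1.19 and 2.38 CPM on day 2, and Slc7a6, another light chain that pairs with Slc3a2, rose by 0.74 ± 0.11 (adjusted p = 4.37e-05). All 16 lysosomal and mitochondrial carriers were tested, with 7 called higher and 4 lower. Slc36a1, the lysosomal proton-coupled carrier, fell by 1.54 on the log2 scale (adjusted p = 5.13e-08), and the mitochondrial aspartate and glutamate carrier gene Slc25a13 rose by 3.91 ± 0.33 (adjusted p = 2.13e-07). Slc36a4 rose by 1.96 ± 0.12 (adjusted p = 8.92e-09), and Slc38a9, the lysosomal arginine sensor of mTORC1, fell by 0.64 on the log2 scale (adjusted p = 0.000122). Of 27 genes of MYC and mTORC1 sensing, 26 were tested, 14 rose and 6 fell. The arginine sensor genes Castor1 and Castor2 rose by 1.71 ± 0.22 and 1.68 ± 0.23 (adjusted p = 1.11e-05 and 1.91e-05), while the MAX partner gene Mxd4 fell by 1.97 and Sesn1, of a sestrin, by 1.78 on the log2 scale (adjusted p = 4.04e-07 and 1.37e-08). Myc rose from 81.2, 99.0 and 70.1 CPM to 235, 291 and 233 CPM in CTL (1.60 ± 0.21, adjusted p = 1.51e-05) and by 1.60 ± 0.21 in LIP.

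In LIP, where 36.6% of all genes were called higher and 35.2% lower, the same lists gave 11 higher and none lower for nucleotide synthesis, 7 and 3 for other folate genes, 3 and 1 for serine and glycine, and 7 and 2 for methionine and polyamines. They gave 9 and 1 for glutamine and branched-chain use, 10 and 1 for other transporters, 7 and 4 for organelle carriers and 13 and 7 for MYC and mTORC1. The ATF4 list had 9 higher and 1 lower of 15 tested in CTL, with a median log2 change of 2.43, and 13 and 1 in LIP, with a median of 3.91. Atf4 itself changed by 0.64 ± 0.26 in CTL (adjusted p = 0.0429) and 2.02 ± 0.27 in LIP (adjusted p = 1.45e-05). Near 0 on day 0 in CTL were Atf3, a stress-induced transcription factor gene, at 0, 0.120 and 0.395 CPM and the lipoprotein receptor gene Vldlr at 0, 0.120 and 0 CPM. On day 2 they were at 135, 109 and 117 CPM and 9.93, 11.6 and 6.47 CPM. Eif2ak4, which encodes the kinase that senses uncharged tRNA, rose by 0.39 ± 0.11 (adjusted p = 0.00651) and Ddit4, an inhibitor of mTORC1, fell by 0.63 on the log2 scale (adjusted p = 0.0306). In CTL the Atf4 call ended without CTL 88 or CTL 94 of day 0, LIP 94 of day 0, or CTL 92 or CTL 97 of day 2 (adjusted p = 0.0547 to 0.134), and with at least 10 counts in every library (0.0613), library totals (0.138) or upper-quartile scaling (log2 change 0.35, adjusted p = 0.255). The Ddit4 call ended without CTL 88 or CTL 94 of day 0 or any CTL library of day 2 (adjusted p = 0.0661 to 0.194), with a log2 change of -0.37 without CTL 94. The Eif2ak4 call ended under upper-quartile scaling (0.10, adjusted p = 0.404) and library totals (0.20, adjusted p = 0.115). The asparagine synthetase gene Asns was at 0.904, 0.722 and 0.921 CPM on day 0 in CTL, 0.413, 1.55 and 0.935 CPM in LIP.

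On day 2 many genes of the ATF4 list had the order of libraries of Slc7a5 and Mthfd2. The list is named for ATF4 and the amino acid stress response, but amino acid supply was not measured and a cause was not tested. Of 16 genes, 15 were tested and none was called in LIP against CTL, but 12 were higher at an unadjusted p under 0.05 (8.33% of all genes), with a median log2 difference of 1.29 against -0.0058 over all genes. DESeq2 and the fit of all 12 libraries each called 10 of the 15 higher, where they called 2.04% and 2.88% of all genes higher. Without LIP 90 all 16 were tested and 13 were called higher (7.74% of all genes) and none lower, with a median of 1.77. Atf4, the transcription factor of this response, was at 154, 132 and 174 CPM in CTL and 194, 489 and 451 CPM in LIP (1.29 ± 0.31, adjusted p = 0.139, without LIP 90 1.63 ± 0.13, adjusted p = 8.25e-05). Asns was at 23.3, 18.6 and 19.2 CPM in CTL and 45.4, 279 and 289 CPM in LIP (3.32 ± 0.60, adjusted p = 0.108, without LIP 90 3.81 ± 0.13, adjusted p = 9.26e-07). Eif2ak4 differed by -0.21 ± 0.13 (adjusted p = 0.444, without LIP 90 -0.23 ± 0.13, adjusted p = 0.278).

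The genes of this paragraph other than Psph were chosen after their values were seen. Trib3, a pseudokinase gene, was at 3.59, 2.99 and 3.97 CPM in CTL and 6.27, 142 and 102 CPM in LIP on day 2, and Chac1, a glutathione-degrading enzyme gene, was at 1.27, 1.67 and 0.568 CPM and 2.87, 42.0 and 40.4 CPM. Among transporters, the glycine carrier gene Slc6a9 was at 2.01, 1.91 and 1.82 CPM in CTL and 1.70, 52.1 and 48.8 CPM in LIP. LIP 96 and LIP 97 were the high libraries in each of these genes. Slc1a4, a neutral amino acid carrier related to Slc1a5, was at 3.28, 4.06 and 3.18 CPM in CTL and 5.37, 57.5 and 58.9 CPM in LIP. Aldh1l2, the mitochondrial enzyme that oxidizes formyl-tetrahydrofolate, was at 1.27, 0.478 and 0.114 CPM in CTL and 1.07, 23.9 and 20.5 CPM in LIP. The same order held for Psph, at 32.9, 25.9 and 29.1 CPM in CTL and 34.2, 99.1 and 100.4 CPM in LIP (1.40 ± 0.36, adjusted p = 0.15, without LIP 90 1.78 ± 0.13, adjusted p = 5.65e-05). Without LIP 90 the adjusted p-values were 1.3e-06 for Trib3, 6.1e-06 for Chac1, 9.26e-07 for Slc6a9, 1.3e-06 for Slc1a4 and 0.000123 for Aldh1l2. With all libraries the edgeR fit of the day called none of these 6 genes, while DESeq2 called each of them (adjusted p from 0.00198 to 0.0241), as did the fit of all 12 libraries (adjusted p from 0.00976 to 0.0186).

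By list, the calls without LIP 90 on day 2, where 7.74% of all genes were called higher and 6.19% lower, were 6 higher and 2 lower of 13 other transporters, 2 and 1 of 16 organelle carriers, 3 and 2 of 15 other folate genes, and 1 and 1 of 6 serine and glycine genes. They were 7 and 0 of 15 genes of glutamine and branched-chain use, Psat1 included, 1 and 2 of 12 of methionine and polyamines, and 2 and 0 of 26 of MYC and mTORC1.

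Without LIP 90, 1 of 14 genes of purine and pyrimidine synthesis was called higher on day 2 and 3 were called lower, 10 were not called, and the median log2 difference was -0.30. Impdh2 of guanine nucleotide synthesis (without LIP 90 0.51 ± 0.13, adjusted p = 0.0284) and Gart of purine synthesis (without LIP 90 -0.68 ± 0.13, adjusted p = 0.0104) were named after their values were seen, and with LIP 90 they differed by 0.39 ± 0.15 and -0.39 ± 0.22 (adjusted p = 0.251 and 0.421). Cad was at 242, 259 and 317 CPM in CTL and 247, 120.1 and 125 CPM in LIP (-0.74 ± 0.27, adjusted p = 0.225, without LIP 90 -1.14 ± 0.13, adjusted p = 0.000974), with LIP 96 and LIP 97 below every other library of the day. Atic was at 135, 149 and 175 CPM in CTL and 181, 97.8 and 108 CPM in LIP (-0.26 ± 0.22, adjusted p = 0.602, without LIP 90 -0.56 ± 0.13, adjusted p = 0.0224). Outside this list, Odc1 of polyamine synthesis was at 287, 283 and 298 CPM and 370.0, 170.5 and 156 CPM (-0.33 ± 0.29, adjusted p = 0.605, without LIP 90 -0.81 ± 0.10, adjusted p = 0.00139). Myc was at 235, 291 and 233 CPM in CTL and 284, 137 and 224 CPM in LIP, with LIP 96 the lowest (-0.25 ± 0.24, adjusted p = 0.648, without LIP 90 -0.47 ± 0.20, adjusted p = 0.151).

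Markers of activation and rest were read beside these values, and Tfrc and Mki67 were chosen after their values were seen. The 6 activation genes summed to 467 to 641 CPM on day 0 and, on day 2, to 6418 to 6553 CPM in CTL, 7439 CPM in LIP 90 and 5522 and 5751 CPM in LIP 96 and LIP 97. Most of the lower sum in LIP 96 and LIP 97 was Tfrc, the transferrin receptor gene. It was at 1261, 1118 and 1312 CPM in CTL and 1614, 286 and 569 CPM in LIP on day 2, and the other 5 genes summed to 5238 to 5301 CPM in CTL and to 5825, 5236 and 5182 CPM in LIP 90, 96 and 97. Cd69 was at 327, 346 and 309.8 CPM in CTL and 250.8, 311 and 405 CPM in LIP on day 2, with LIP 97 the highest, while Mki67 of cycling cells was at 1575, 1848 and 1957 CPM and 1968, 1539.6 and 1721 CPM. The 6 quiescence genes summed to 3088 to 3760 CPM on day 0, to 1099 to 1162 CPM in CTL on day 2, and to 1235, 1349 and 1820 CPM in LIP 90, 96 and 97. Of the activation genes, Cd69 was called lower in LIP on day 0 (-0.90 ± 0.16, adjusted p = 0.0375), a call that ended without CTL 88 or any LIP library of day 0 (adjusted p = 0.103 to 0.316), under library totals (0.0598) and in the fit of all 12 libraries (0.198). The part of these markers in the members' values was not tested.

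**Figure D5:**
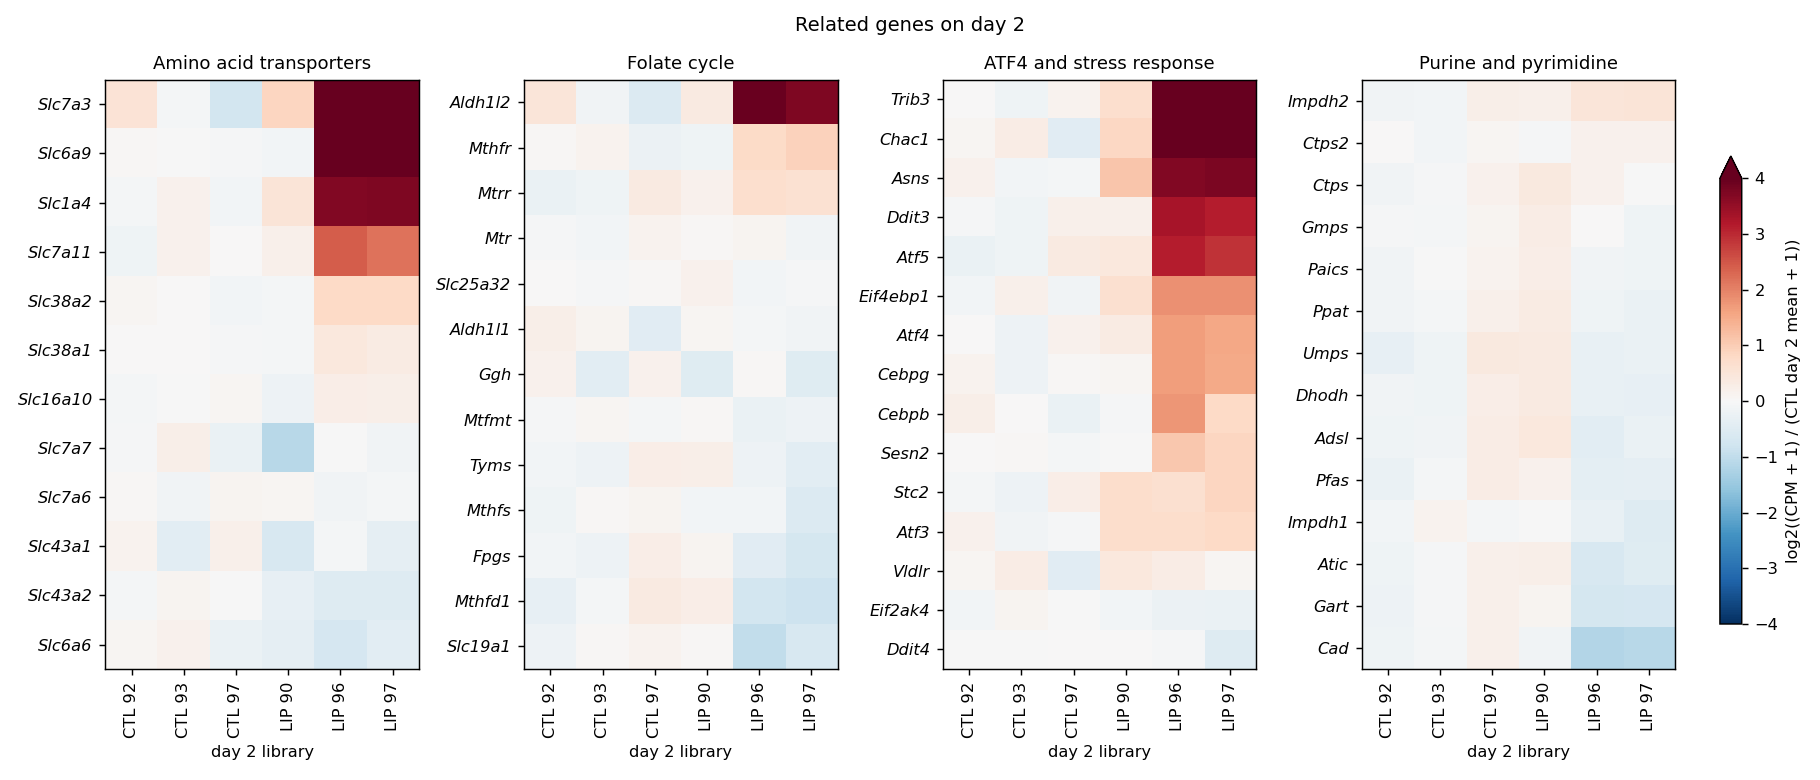
Tested genes of 4 related lists (rows, 1 folate gene not shown) in the 6 libraries of day 2 (columns), colored by log2 of (CPM + 1) over the CTL day 2 mean (+ 1), with colors capped at 4 above and below 0. LIP 96 and LIP 97 are deep red in Trib3, Chac1, Asns, Slc6a9 and Aldh1l2, LIP 90 is paler than they are in these 5 genes, and Cad, Atic and Mthfd1 are blue in LIP 96 and LIP 97.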

How the data were processed

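RNA was sequenced from 12 libraries of splenic CD4+ T cells (3 per group) after rRNA depletion, as directional libraries. Per the submitters' processing notes, the authors checked reads with FastQC 0.11.9, trimmed them with Trimmomatic 0.38 (the methods name another version) and deposited expected counts per gene from RSEM 1.3.0 with Bowtie2 on GRCm39. The annotation release and the strand setting are not given in the sources used here. The day tables were used for gene symbols only (15174 records). Their 12 normalized columns, of which 2 belong to no labelled library, and the fold changes, p-values and FDR of the study's own comparisons were not used.

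Expected counts were rounded (73267 values were not whole, and 27193 of 55414 records held no count). Low genes were removed with filterByExpr, libraries were scaled by TMM, and edgeR 4.0.16 in R 4.3.3 gave quasi-likelihood tests with Benjamini-Hochberg adjustment over all genes tested, a call being an adjusted p under 0.05. Activation and the difference in activation came from 1 fit of all 12 libraries, and LIP against CTL from 1 fit per day. CPM were scaled by TMM over all libraries. Levels per kb divide by the length of the canonical transcript in GENCODE M39, which held 54749 of the records. Ratios added a pseudocount of 0.5 and had exact permutation tests. DESeq2 1.42.0, upper-quartile scaling, library totals, other filters, 1 fit of all libraries and leaving out each library were alternatives. The edgeR fits were also run on simulated counts as a check of the code, and no result given here rests on that run. At 6249018 to 12866718 counts per library, no member had under 10 CPM, and the lowest, Shmt1 on day 0, held 76 to 103 counts per library. Pseudogene copies were found with blastn 2.17.0 (at least 300 aligned bases at 90% identity).

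The members and lists were chosen with earlier results of these data known. Genes named outside the members were, per list, the 2 highest and 2 lowest called fold changes of activation in CTL, genes called between LIP and CTL, and Atf4, Asns, Myc and Psph, with Mthfd1 for its ratio, overlapping genes, and others said to be chosen after their values were seen. Some genes of the lists are not reported here by name.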

Additional observations from a re-analysis of the deposited data

How the results depend on the processing

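Nothing in the labels says that a library number marks a shared source. LIP and CTL of a day share 1 number (94 on day 0, 97 on day 2), which leaves no residual degree of freedom for a blocked fit of a day. Across all 12 libraries 4 numbers occur in 2 groups. The 4 pairs had correlations of deviations from the group means of -0.0054 (92), -0.055 (93), 0.10 (94) and -0.044 (97). With so few pairs, and group means of 3 libraries, these values cannot tell whether a number marks a shared source. A replicate block over all 12 libraries, chosen after seeing the data, had 1 residual degree of freedom and called 10 members higher for activation in CTL (23.6% of all genes), 10 in LIP (26.1%) and 7 for the difference in activation (2.39%). Of the calls given for other genes, it left Mtfmt, Slc25a32, Srr, Atic, Eif2ak4 and Bcat2 in CTL at adjusted p-values of 0.0564 to 0.691 and Top3a in LIP at 0.167. Over all settings, 795 fold changes of members kept direction and call, 59 gained a call, 12 lost one and 14 turned direction, and none of those 14 was called. The count of members called between LIP and CTL on day 2, 0 of 10, was 5 with DESeq2 (2.04% of all genes higher), 7 without a filter on low counts (1.59%) and 7 with all 12 libraries in 1 fit (2.88%). For the difference in activation, 0 of 10 became 3 with DESeq2 (2.40%) and 7 without the filter (1.82%), and 7 without CTL 94 of day 0 and LIP 90 of day 2 together (5.75%), an alternative chosen after seeing the data. Leaving out 1 library gave 0 to 8 members in both comparisons, above 0 only without LIP 90, 9 to 10 for activation in CTL, 10 for activation in LIP and 0 on day 0. Upper-quartile scaling left 8 members called for activation in CTL (not Slc3a2 and Mthfd2; 27.5% of all genes higher) and moved the median of all genes to -0.31 there and to -0.32 in LIP. The cause was not tested.

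On day 0, library totals turned Shmt1 (0.0058), Shmt2 (0.042) and Slc1a5 (0.0016). Leaving out 1 library on day 0 gave log2 differences of -0.011 to 0.30 for Phgdh, -0.29 to 0.056 for Psat1, -0.16 to 0.083 for Shmt1, -0.19 to 0.10 for Shmt2 and -0.16 to 0.023 for Slc1a5. For Shmt1 it gave -0.49 to 0.019 on day 2 and -0.44 to 0.10 for the difference in activation, the upper ends without CTL 97 of day 2. The ratio of Shmt2 to Shmt1 between LIP and CTL on day 0 ranged from -0.25 to 0.25, and that of Mthfd2 to Mthfd1 with activation in CTL from -0.29 to 0.040. Genes near 1 CPM, such as Aldh1l2 on day 0, held few counts.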
